A study of Mus musculus with 8 samples.

Results

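The 36 genes described here encode enzymes, membrane transporters and biogenesis factors assigned to the peroxisome, chosen by name from a list of peroxisomal oxidation and biogenesis genes, out of 24079 gene symbols present in both assays. They comprise 19 matrix enzymes, 4 membrane transporters and 13 peroxins. All 36 passed the filter on low values in mRNA, in ribosome-protected fragments (RPFs) and in their ratio, so each of them was tested in each measure.

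The livers came from C57BL/6 mice. Both groups ate a high-fat diet, 45% of the calories being fat, alone (HF) or while also receiving 2% (w/v) betaine dissolved in water (HB). Feeding began at 8 weeks of age. The sample labels state 25 weeks of feeding, while a start at week 8 and collection at postnatal week 25 leave 17. Mice on a standard diet were not analysed here. RNA-seq measured polyadenylated mRNA, and Ribo-seq measured RPFs, the short mRNA pieces that a ribosome shields from RNase. Each assay had 2 libraries per group, named HF1, HF2, HB1 and HB2. The labels describe RNA pooled across preparations and the methods describe individual mice, so a library was taken as the replicate, and p-values measure only the spread between libraries.

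Peroxisomes shorten very-long-chain and branched fatty acids and the side chain of bile acid precursors. ABC transporters bring the acyl-CoA esters in. An acyl-CoA oxidase, a bifunctional enzyme and a thiolase then take turns, and catalase removes the hydrogen peroxide that the oxidase makes. The enzymes are made in the cytosol. PEX5 and PEX7 recognise their targeting signals, PEX13 and PEX14 dock the loaded receptor, and a ubiquitin ligase recycles it together with PEX6 and PEX26. PEX3, PEX16 and PEX19 insert membrane proteins, and the PEX11 family elongates and divides the organelle. In rodent liver many of these genes are known targets of the lipid-sensing nuclear receptor PPARα.

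The deposited values are RPKM, the reads of a gene divided by gene length and library total. RNA-seq libraries held 11661207 to 22543471 reads and Ribo-seq libraries 141890 to 1056546, both estimated from the steps between low RPKM. HB2 had the fewest RPF reads, with a median of 17 per member gene, against 140 in HF2. No member had a mRNA library at or below 3 reads, while 9 members had at least 1 such Ribo-seq library. Hepatocyte markers summed to 81438.7 to 102252 mRNA RPKM. Kupffer markers summed to 109.0 to 134.4, endothelial to 52.4 to 63.5 and stellate to 33.8 and 33.0 in HF and 70.8 and 42.4 in HB. Of these markers 1 endothelial was lower in mRNA and 1 Kupffer higher at an adjusted p under 0.05. Markers of cholangiocytes summed to 15.7 to 31.9, those of T and B cells to at most 2.60 and those of adipocytes to at most 0.573. In bulk tissue, fewer cells of a type and less RNA per cell cannot be told apart. Protein-coding genes took 93.9% and 93.0% of Ribo-seq reads in HF1 and HF2, 88.6% in HB1 and 82.3% in HB2.

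In HF livers the enzymes spanned a far wider range of mRNA levels than the peroxins. The most abundant members were Acaa1b, a peroxisomal 3-ketoacyl-CoA thiolase, at 1153 ± 338 RPKM (SD, n = 2), Scp2, the sterol carrier protein and thiolase, at 1109 ± 116, Phyh, the phytanoyl-CoA hydroxylase of alpha oxidation, at 804 ± 40.2, Cat, catalase, at 693 ± 19.0, and Acaa1a, the second thiolase, at 376 ± 83.3. These 5 enzymes made up 75.5% to 80.4% of the summed mRNA RPKM of the members in each library. Acaa1b and Scp2 did not differ beyond the spread of the Acaa1b libraries. The highest peroxin was Pex11a at 65.1 ± 4.06 RPKM. The lowest members were Abcd2, a transporter of very-long-chain acyl-CoA, at 2.17 ± 0.250, and Acox3, an oxidase of branched chains, at 4.40 ± 0.946. The median enzyme was at 73.3 and 88.3 RPKM in HF1 and HF2, and the median peroxin at 21.3 and 22.3.

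RPF levels in HF livers followed the same broad order, with Scp2 at 1391 ± 17.4, Cat at 1374 ± 191 and Phyh at 880 ± 203 RPKM. Translation efficiency (TE) is given below as the RPF RPKM divided by the mRNA RPKM of the same-named library. The median TE was 1.47 and 1.77 for the enzymes and 1.16 and 0.905 for the peroxins in HF1 and HF2, against 1.07 and 1.02 for all tested genes. The sequence lengths behind the RPKM were estimated from the RPKM steps. They matched an annotated transcript for 2 members in RNA-seq and 0 in Ribo-seq. By these estimates the lengths differed between the assays for 17 of the 36 members. For Pex11a and Pex11g the RNA-seq length was under 0.6 of the Ribo-seq length. If so, their TE levels are not like for like, and through the pseudocount the length also bears on their tested changes. Pex13 stood far from every other member at a TE of 19.9 and 44.4. Abcd3, an abundant ABC transporter of the peroxisomal membrane, was at 3.85 and 6.95, and Ehhadh, the bifunctional enzyme of the straight-chain pathway, at 2.26 and 5.17. Acaa1b, first in mRNA, was near the low end at 0.541 and 0.477.

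**Figure D1:**
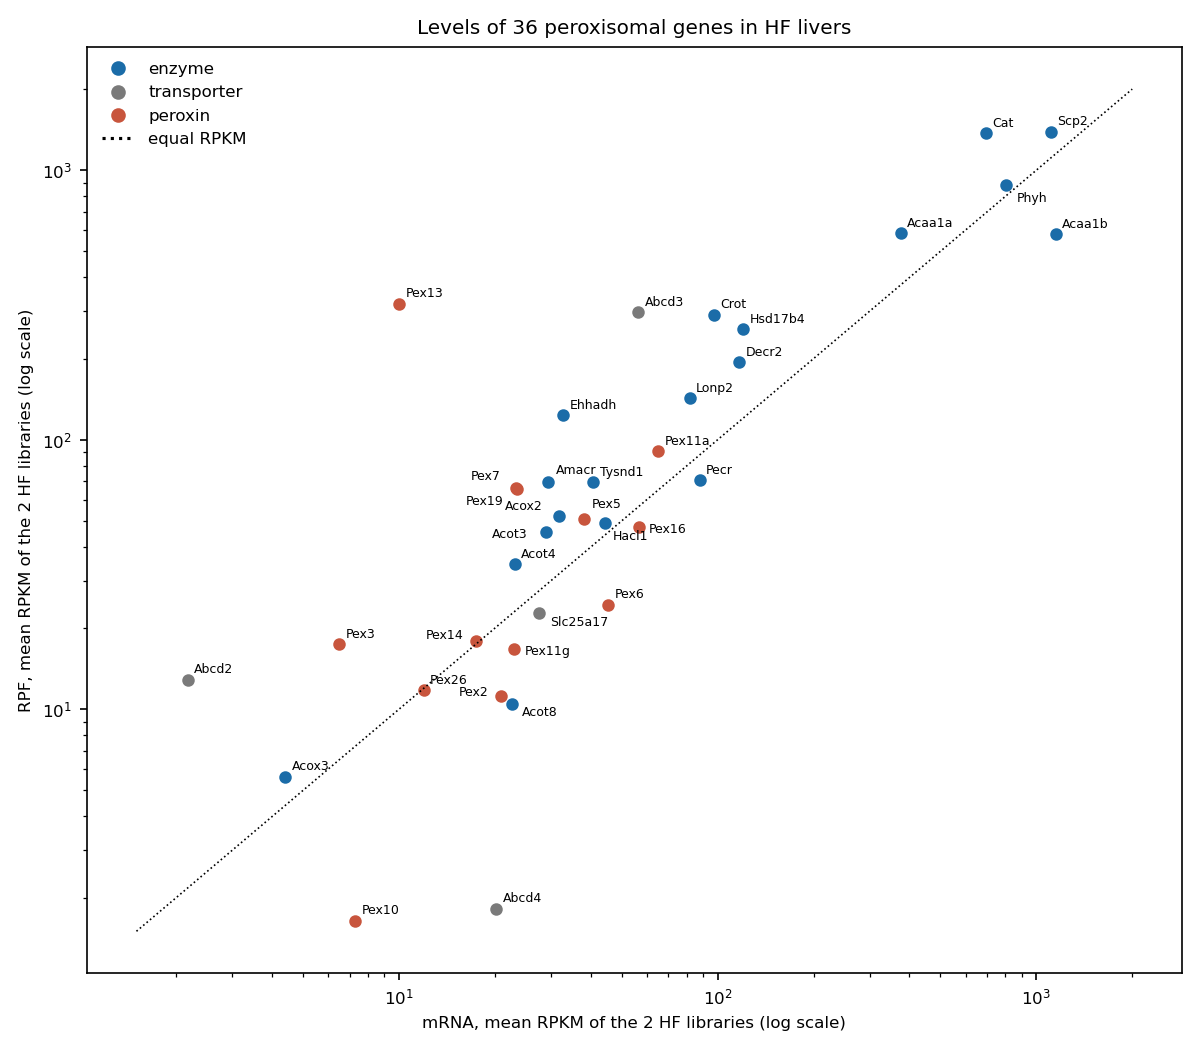
Mean mRNA RPKM (horizontal axis, log scale) and mean RPF RPKM (vertical axis, log scale) of the 36 members over the 2 HF libraries, coloured by group. The dotted line marks equal RPKM. Pex13 lies far above it at 10.0 mRNA RPKM and 320 RPF RPKM, and Pex7 and Pex19 nearly coincide.

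With betaine, 8 members had higher mRNA and 1 had lower mRNA after adjustment. Ehhadh was called higher, and so was the peroxin Pex11g, where a call needs an unadjusted p under 0.001 and a log2 fold change past 1 in size. Of all 10687 tested genes 2.3% were called higher and 6.56% lower, and 2 of the 36 members were called higher. No member was called lower by limma, and Abcd4 was the only member lower at an unadjusted p under 0.05. At a Benjamini-Hochberg adjusted p under 0.05, 8 members were higher, or 22.2%, against 7.92% of all tested genes, and 1 was lower, or 2.78%, against 19.1%. The 8 were the enzymes Ehhadh, Pecr, Acaa1b, Lonp2 and Amacr, the transporter Abcd3 and the peroxins Pex14 and Pex11g. Both HB libraries lay above both HF libraries for 20 members, or 55.6%, against 24.8% of all tested genes, and below them for 5, or 13.9%, against 43.3%. The median log2 fold change of the members was 0.44, against −0.19 for all tested genes.

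The enzymes had the larger median change in mRNA, by a gap no larger than the spread of their library medians. The median log2 fold change was 0.53 for the 19 enzymes, with 15 of them positive, and 0.19 for the 13 peroxins, with 8 positive. Of all tested genes 39.8% were positive. Within groups, the library medians had an SD of 0.35 log2 for the enzymes and 0.15 for the peroxins. Both HB libraries lay above both HF libraries for 57.9% of enzymes and 53.8% of peroxins. Without Pex13 the peroxin median was 0.34. The median of all 13 peroxins was 0.32 without HF1, 0.074 without HF2, 0.12 without HB1 and 0.30 without HB2. At an adjusted p under 0.05, 5 enzymes and 2 peroxins were higher and none of either was lower. The difference between the groups of genes was not tested, since members are not replicates. Both medians stayed above 0 with log2 values shifted to a common median, with RPKM rescaled to a common sum and with scaling to protein-coding reads. The common median moved the median of all tested genes from −0.19 to 0.08 and turned the split of calls over all genes from 246 higher and 701 lower to 540 and 291.

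The 7 enzymes of the beta oxidation core all had a positive log2 fold change, with a median of 0.67. Ehhadh mRNA was 31.8 and 33.7 RPKM in HF1 and HF2 and 152.6 and 92.9 in HB1 and HB2. The groups did not overlap, and the lower HB library was still well above both HF libraries. The log2 fold change on log2(RPKM + 1) was 1.83 ± 0.29 (SE; adjusted p = 0.00526), a 3.75-fold ratio of the group means. The call stood with each library left out in turn. Acaa1b was 914 and 1392 RPKM in HF and 2082 and 2889 in HB, with a log2 fold change of 1.12 ± 0.34 (adjusted p = 0.0365). Acaa1a went from 317 and 435 to 545 and 764 RPKM and did not pass (0.79 ± 0.31, adjusted p = 0.0806). The thiolase pair shares sequence, and 50.0% of the 25-base words of Acaa1b also occur in Acaa1a, so the authors' counting could split reads between them.

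Hsd17b4, the bifunctional enzyme of the branched-chain and bile acid pathway, was 128 and 112 RPKM in HF and 212 and 174 in HB. The groups did not overlap, but the log2 fold change of 0.67 ± 0.26 did not pass the adjustment (adjusted p = 0.0843). Acox2, the oxidase of bile acid precursors, had a log2 fold change of 0.66 ± 0.28 (adjusted p = 0.111) and Acox3 one of 0.19 ± 0.27. Scp2 was 1191 and 1028 RPKM in HF and 1794 and 1106 in HB, so that HB2 lay inside the HF range (0.35 ± 0.33, adjusted p = 0.451). A pseudogene, Scp2-ps2, shares 42.8% of the Scp2 words.

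Among the auxiliary and alpha oxidation enzymes all 5 values were positive, with a median of 0.73. Pecr, the trans-2-enoyl-CoA reductase, rose from 87.2 and 88.3 to 230 and 170 RPKM (1.17 ± 0.27, adjusted p = 0.0139). Amacr, the racemase that makes branched acyl-CoA fit for oxidation, rose from 29.1 and 29.5 to 50.9 and 49.0 RPKM (0.75 ± 0.24, adjusted p = 0.0451). The replicates of Amacr were the closest of these, and its fold was 1.70. Phyh (0.40 ± 0.28), Hacl1, the lyase that follows it (0.73 ± 0.41), and Decr2, the dienoyl-CoA reductase (0.18 ± 0.26), did not pass. Hacl1 shares 55.2% of its words with the overlapping gene Gm49387.

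The thioesterases and the carnitine transferase had values near 0. Acot3, Acot4 and Acot8, which release free fatty acids from their CoA esters, had log2 fold changes of −0.19, −0.30 and 0.19. Crot, which transfers medium-chain products to carnitine for export, was 90.2 and 104 RPKM in HF and 111 and 83.9 in HB (−0.01 ± 0.27, adjusted p = 0.980). None of these 4 passed the test.

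Of the matrix proteases, Lonp2, the peroxisomal Lon protease, rose from 73.3 and 90.0 to 218 and 144 RPKM (1.11 ± 0.29, adjusted p = 0.0217). Tysnd1, which trims several imported enzymes, was 43.5 and 38.0 RPKM in HF and 32.4 and 44.9 in HB, with overlapping groups (−0.09 ± 0.27). Cat was 706 and 679 RPKM in HF and 1117 and 903 in HB. The groups of Cat did not overlap, but its log2 fold change of 0.53 ± 0.28 did not pass (adjusted p = 0.186).

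The 2 transporters that passed moved in opposite directions. Abcd3 rose from 60.3 and 52.3 to 189 and 100.0 RPKM (1.27 ± 0.32, adjusted p = 0.0197). With 1 library left out its value ranged from 0.82 to 1.73. Abcd4, a member of the same ABC subfamily that is known for lysosomal cobalamin export rather than for peroxisomal import, was 26.9 and 13.4 RPKM in HF and fell to 4.56 and 7.70 in HB (−1.53 ± 0.36, adjusted p = 0.0146). Abcd2 (0.58 ± 0.31) and Slc25a17, the cofactor carrier of the peroxisomal membrane (−0.35 ± 0.31), did not pass.

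Among the peroxins, 6 of the 7 receptor, docking and membrane import factors had a positive log2 fold change, and all 4 ligase and recycling factors a negative one, as did 60.2% of all tested genes. The split depends on the scaling, since under a common median Pex2, Pex6, Pex26 and Pex13 turned positive. Pex14, of the docking complex, rose from 16.8 and 18.0 to 34.3 and 35.7 RPKM (0.97 ± 0.24, adjusted p = 0.0186). Pex5, the receptor for most matrix enzymes, was 41.4 and 34.6 RPKM in HF and 45.3 and 41.8 in HB (0.19 ± 0.25, adjusted p = 0.586). Pex7 (0.61 ± 0.33) did not pass and Pex13 mRNA was level (−0.01 ± 0.28). Pex3, Pex16 and Pex19 had log2 fold changes of 0.49, 0.70 and 0.62, and no adjusted p under 0.05. The groups did not overlap for any of the 3, with HB higher, as for 24.8% of all tested genes. Pex19, the membrane protein chaperone, was 24.3 and 22.3 RPKM in HF and 41.8 and 31.4 in HB (adjusted p = 0.104). Pex2, Pex6, Pex10 and Pex26 were all slightly negative, at −0.15 to −0.40, and none passed. The groups of Pex6, Pex10 and Pex26 did not overlap, with HB lower. These were 23.1% of the 13 peroxins, against 43.3% of all tested genes.

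Of the division factors, Pex11g rose from 19.3 and 26.7 to 50.4 and 64.1 RPKM (1.29 ± 0.27, adjusted p = 0.0106), while Pex11a was 68.0 and 62.3 RPKM in HF and 76.1 and 67.4 in HB, with overlapping groups (0.14 ± 0.25, adjusted p = 0.708). The call of Pex11g was lost without HF1, at 1.06, without HB2, at 1.12, and also with no filter, with scaling to protein-coding reads and with voom. Gm44775 lies on the other strand across Pex11g and shares 47.5% of its words, and Gm17029 lies across Pex14 in the same way with 28.6%. The counting is not stated to use strand, so reads of such overlapping genes cannot be told apart. Without HF1, Pex11g, Pecr, Pex14, Lonp2, Acaa1b, Amacr and Abcd4 no longer had an adjusted p under 0.05. The same held without HF2 for Pecr, Pex14, Abcd3 and Amacr, and without HB1 for Amacr. Amacr, the closest to the threshold, also missed it under a common sum, with the replicate block, with scaling to protein-coding reads and with voom, and passed in 6 of 14 alternatives. With no filter, where 24535 entries were tested, none of the 9 passed.

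**Figure D2:**
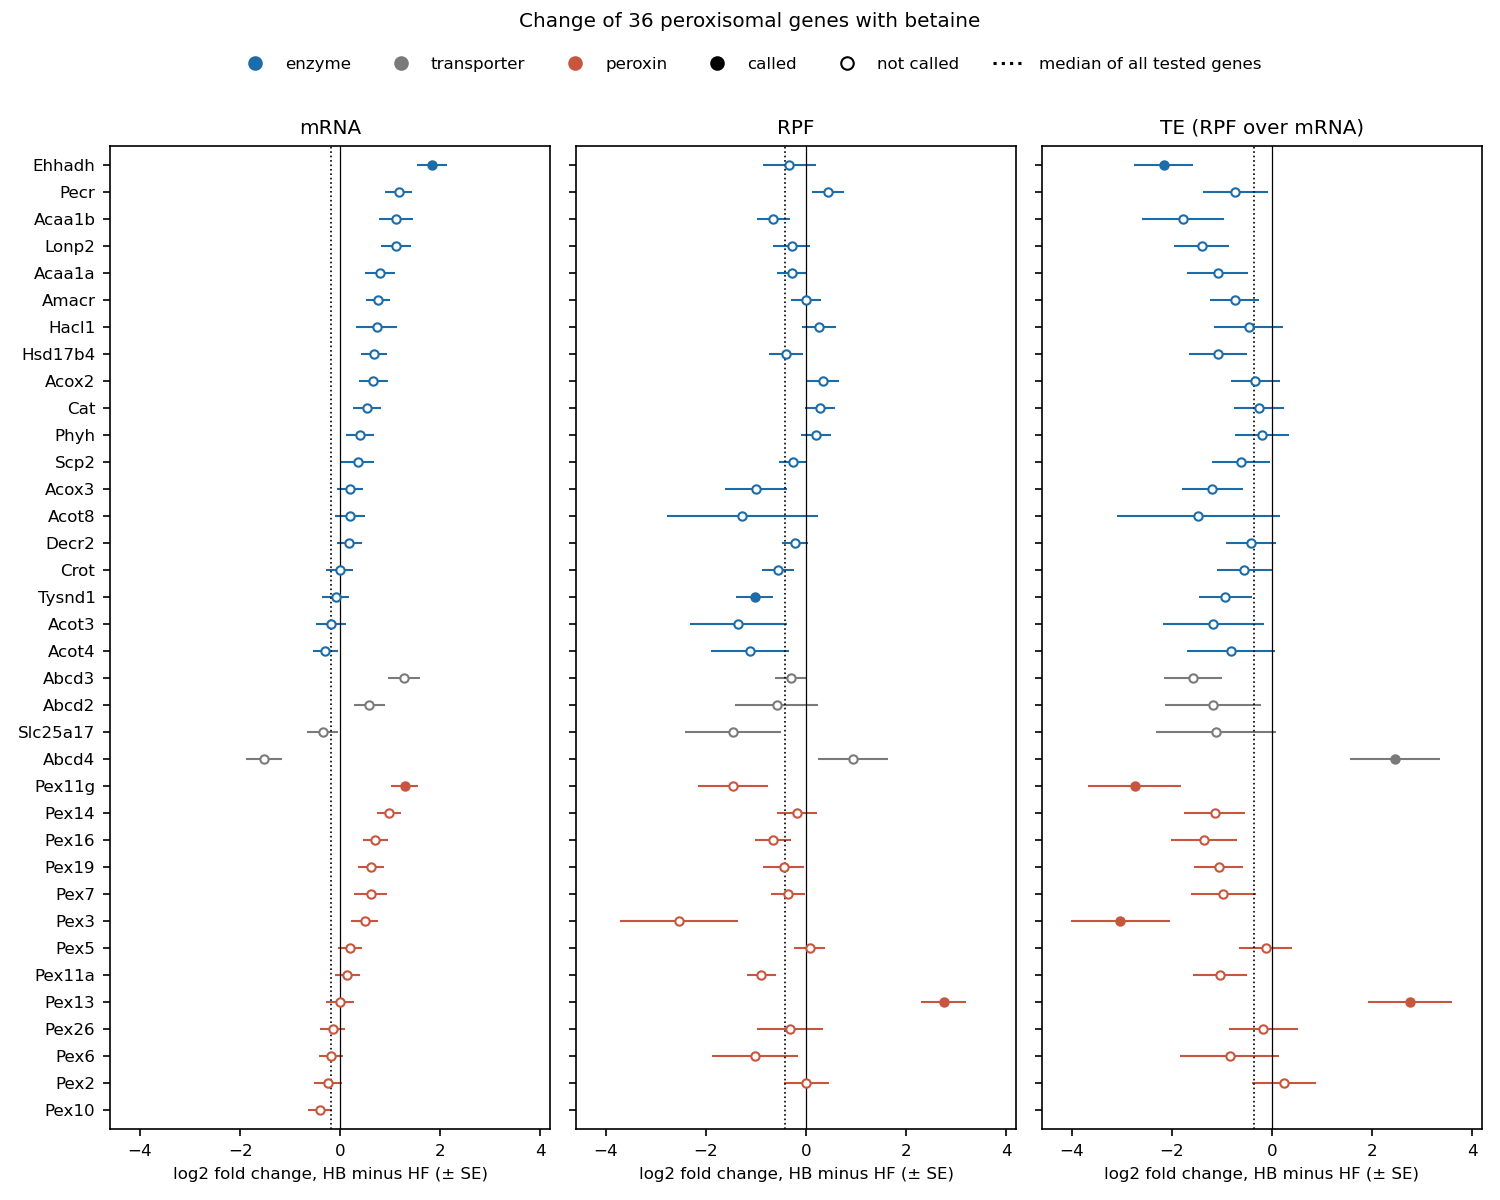
Log2 fold change (HB minus HF, ± SE) of each member on log2(RPKM + 1), in mRNA, RPF and TE, for enzymes, transporters and peroxins. Filled points passed the call rule of that measure, and dotted lines mark the median of all tested genes. Most mRNA points lie right of 0 and most TE points left of it. Pex10 is drawn for mRNA alone, since it had at most 3 reads in every Ribo-seq library.

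The 2 members called higher in mRNA are shown with their upstream sequence because they lie in different groups, an enzyme and a peroxin. Ehhadh lies at chr16:21761287-21787807 and Pex11g at chr8:3457105-3467680, both on the minus strand (GRCm38, GENCODE M21). The windows below run from 250 to 51 bases before the RefSeq start (GRCm38.p6), at chr16:21787885-21788084 and chr8:3467699-3467898, and are read 5′ to 3′ on the minus strand. Capitals mark AGGTCA, the half-site that many nuclear receptors bind, searched on both strands.
Ehhadh: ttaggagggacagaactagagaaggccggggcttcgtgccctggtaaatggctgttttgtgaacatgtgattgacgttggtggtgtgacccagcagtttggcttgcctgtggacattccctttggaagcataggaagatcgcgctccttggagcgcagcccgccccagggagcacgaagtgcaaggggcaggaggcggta
Pex11g: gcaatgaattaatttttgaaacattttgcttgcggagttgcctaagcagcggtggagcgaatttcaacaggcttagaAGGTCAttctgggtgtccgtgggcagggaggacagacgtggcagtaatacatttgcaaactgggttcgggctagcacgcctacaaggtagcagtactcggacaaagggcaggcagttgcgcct
Windows from 250 bases before to 50 bases after a start were found for 30 of the 36 members. AGGTCA was in the windows of 6 of them (Acot3, Acot4, Cat, Pex11g, Phyh and Scp2), and in 7 of 38 member windows, or 18.4%, against 16.3% of all 32851 windows. A direct repeat of AGGTCA with 1 base between the copies, each of them also a match to the half-site, was in 13 of all windows and in no member window. The Ehhadh window held neither. A match in these letters is a description and not evidence of binding.

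In RPF few members passed the test. Of the members 1 was called higher and 1 lower (unadjusted p under 0.05 and a log2 fold change past 1 in size), against 1.58% and 7.86% of the 11190 tested genes. With group as the only factor and genes at a mean of 1 RPKM or more, no gene passed an adjusted p under 0.05 in limma, where 1122 genes and 3 members had an unadjusted p under 0.05. At the adjusted threshold a voom test on recovered reads passed 51 genes higher and 33 lower, limma with the replicate number as a block 13 and 11, and limma with crossed numbers as a block 51 and 28, with Pex13 among them each time. With genes at a mean of 5 RPKM or more, 1 gene lower passed. Without HF1, 1 gene higher and 700 lower passed, and without HF2, 5 and 699, with no member among them. The median log2 fold change was −0.29 for the enzymes and −0.36 for the peroxins, against −0.43 for all tested genes. The enzyme median was −0.60 without HF1, −0.15 without HF2 and −0.11 without HB2, and the peroxin median −0.56 without HF2 and −0.91 without HB1. The enzyme median turned to 0.04 under a common median and fell to −1.16 under a common sum, so its sign depends on the scaling. Both HB libraries were above both HF libraries for 4 members, against 9.07% of all tested genes, and below for 13, against 33.2%. Of the 8 members with higher mRNA at an adjusted p under 0.05, 2 had a positive and 6 a negative RPF log2 fold change, and 70.4% of all tested genes had a negative one. Under a common median the values of Abcd3, Pex14 and Lonp2 turned positive. The 2 positive values, of Pecr and Amacr, fell as low as −0.43 and −0.86 in other alternatives. Markers of other liver cell types had negative median RPF changes as well, and no marker passed the adjustment. The median RPF log2 fold change was −1.25 for the endothelial markers, 2 of 5 being called lower, −1.59 for the 2 tested cholangiocyte markers, −1.04 for the stellate and −0.59 for the Kupffer markers, 1 of 6 being called lower, against 0.24 for the hepatocyte markers. Endothelial markers summed to 129 and 101 RPF RPKM in HF and 105 and 55.3 in HB, with overlapping groups, and the sums of the stellate markers were lower in both HB libraries than in both HF libraries. Their part in the RPF and TE values of the members was not tested.

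Ehhadh RPFs were 71.9 and 174.5 RPKM in HF and 112.4 and 70.2 in HB. The groups overlapped and HF2 was the highest library, opposite to the mRNA (−0.33 ± 0.53, adjusted p = 0.827). The value was −0.97 without HF1 and turned to 0.30 without HF2, and it was 0.00 without HB2. Acaa1b RPFs were 494 and 664 RPKM in HF and 436 and 304 in HB. Both HB values were below both HF values (−0.65 ± 0.33, adjusted p = 0.568). Abcd3 RPFs were 232 and 363 RPKM in HF and 227 and 245 in HB (−0.30 ± 0.32), and Lonp2 RPFs 104 and 181 in HF and 127 and 99.3 in HB (−0.29 ± 0.37). Both genes overlapped between groups, and both signs turned without HF2, to 0.03 and 0.11.

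Pecr was the member with higher mRNA at an adjusted p under 0.05 whose RPFs were also higher in both HB libraries, at 56.2 and 85.0 RPKM in HF and 88.1 and 100.5 in HB (0.44 ± 0.33, adjusted p = 0.653). With 1 library left out the Pecr value ranged from 0.15 to 0.73. Amacr RPFs were nearly the same in both groups, at 77.1 and 62.5 RPKM in HF and 77.0 and 63.0 in HB (0.00 ± 0.30). Cat RPFs were 1239 and 1509 RPKM in HF and 1572 and 1765 in HB (0.28 ± 0.30, adjusted p = 0.733), with a range of 0.14 to 0.43 when 1 library was left out. Cat rested on 6964 RPF reads, the most of any member. Hsd17b4 RPFs were 213 and 301 RPKM in HF and 158 and 234 in HB, Scp2 RPFs 1379 and 1403 in HF and 1118 and 1209 in HB, and Crot RPFs 284 and 298 in HF and 155 and 249 in HB. None of these 3 passed the test.

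Tysnd1 was called lower in RPF, from 86.0 and 53.5 to 30.0 and 36.2 RPKM (−1.02 ± 0.37, adjusted p = 0.493). The groups did not overlap, on 210 reads in HF and 30 in HB. The call was lost without HF1 (−0.68), without HB1 (−0.89) and without HB2 (−1.15), and also under a common median, with no variance trend, with scaling to protein-coding reads and with voom. Pex11a RPFs were 92.3 and 89.6 RPKM in HF and 54.3 and 43.1 in HB (−0.90 ± 0.29, adjusted p = 0.493), short of the fold needed for a call. Pex5 RPFs were 43.6 and 58.2 RPKM in HF and 55.7 and 50.4 in HB, Pex14 RPFs 19.6 and 16.3 in HF and 13.8 and 17.9 in HB, and Pex19 RPFs 71.3 and 60.7 in HF and 66.8 and 34.6 in HB. These 3 peroxins overlapped between groups.

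**Figure D3:**
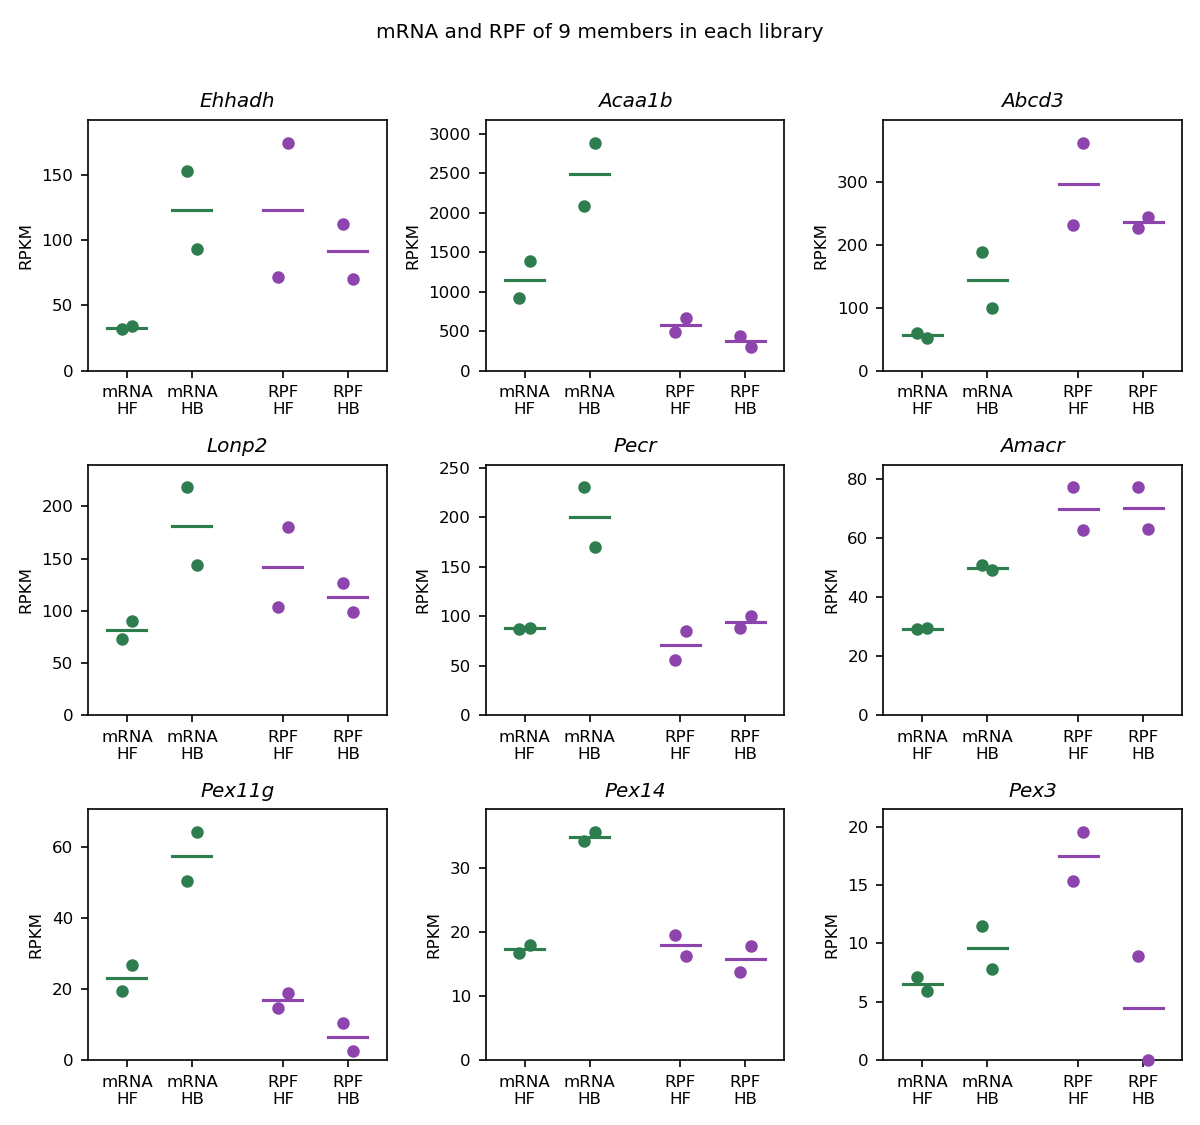
RPKM of 9 members in each library (points) with the mean of 2 libraries (lines), for mRNA in green and RPF in purple, each panel starting at 0. Shown are Pex3 and the 8 members with higher mRNA at an adjusted p under 0.05, so higher mRNA in those 8 follows from the choice. Both HB points of mRNA lie above both HF points in all 9 panels, while for RPF this holds for Pecr alone. Of all 36 members it holds for 4 in RPF, among them Cat and Pex13, which are not shown.

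Pex13 was the member called higher in RPF, and it was unlike every other peroxin. Its RPFs were 204 and 437 RPKM in HF and 1809 and 2244 in HB (2.75 ± 0.45, unadjusted p = 0.0018, adjusted p = 0.493), a 6.33-fold ratio of means. The call stood in all 14 alternatives of scaling, filter, model and libraries, though not after adjustment in 11 of them. Its mRNA was 10.2 and 9.83 RPKM in HF and 12.5 and 7.84 in HB. The highest RPF value among the other 12 peroxins was 92.3, 89.6, 66.8 and 63.3 RPKM in HF1, HF2, HB1 and HB2. Pex13 alone took 0.0665% and 0.143% of all RPF reads in HF1 and HF2 and 0.591% and 0.733% in HB1 and HB2. Its TE ranked 47, 9, 6 and 2 among the 9237 protein-coding genes tested for TE, in the same order of libraries.

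Some entries that are no coding mRNA, or that stood out in Ribo-seq, were also higher in both HB libraries. Rn45s, the ribosomal RNA precursor, was 114 and 47.7 RPKM in HF and 498 and 529 in HB. Rmrp, the RNA of a nuclear ribonuclease, was 3721 and 5094 in HF and 41755 and 33906 in HB. Mir122, the hepatocyte microRNA, was 68849 and 132980 in HF and 418561 and 778452 in HB. Lars2, a mitochondrial tRNA synthetase, was 29.2 and 40.9 in HF and 207 and 401 in HB, while its mRNA went from 26.0 and 30.4 to 6.88 and 7.77. Rn45s, Rmrp and Lars2 passed the call rule, and Mir122 did not (unadjusted p = 0.0916). Snord118, a small nucleolar RNA, was 52847 and 52202 in HF and 61072 and 193066 in HB, so that HB2 alone stood apart, and was not called (unadjusted p = 0.321). These 5 entries were chosen after their values were seen. Pus10 overlaps Pex13 on the other strand, and Pex13-ps shares 6.18% of its words. The part of short RNA fragments in the Pex13 value was not tested.

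**Figure D4:**
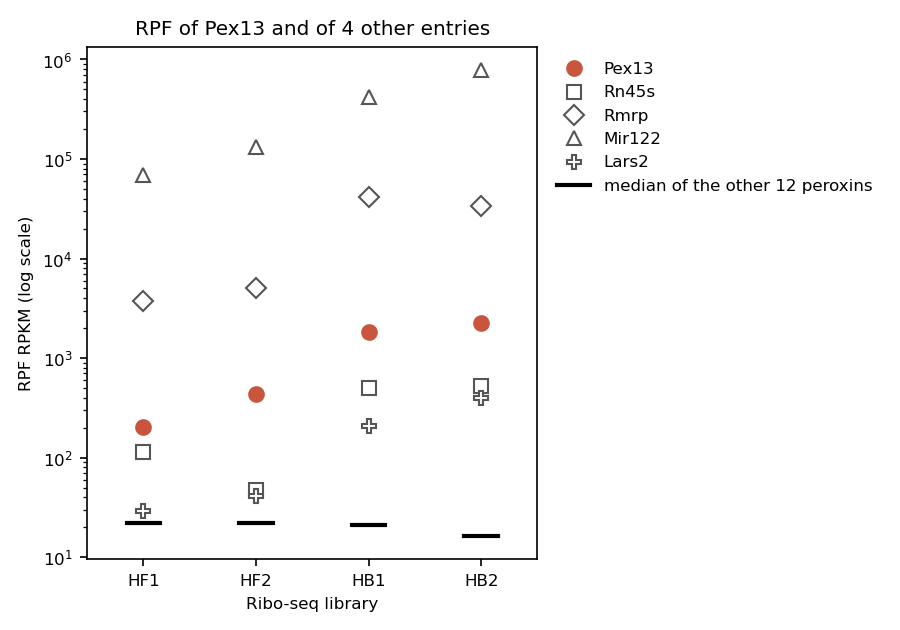
RPF RPKM (log scale) of Pex13 and of Rn45s, Rmrp, Mir122 and Lars2 in the 4 Ribo-seq libraries, with the median of the other 12 peroxins as a bar. All 5 entries are higher in HB1 and HB2 than in HF1 and HF2, and the bar stays between 16.4 and 22.1.

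The ratio of RPF to mRNA was lower with betaine for most members. TE was tested as log2((RPF RPKM + 1)/(mRNA RPKM + 1)), and a call needs a change beyond 2 with an unadjusted p under 0.05. The median change was −0.82 for the enzymes and −0.97 for the peroxins, against −0.35 for all 9455 tested genes. Without HB1 that of the enzymes was −0.42, close to the −0.40 of all tested genes. Without HB2 the 2 medians were −1.01 and −0.23. All 19 enzymes had a negative change, as did 10 of the 13 peroxins and 63.2% of all tested genes. The shared sign of the enzymes did not hold in every alternative. The highest values were 0.14 for Acot3, 0.39 for Acot4, 1.02 for Acot8 and 0.29 for Hacl1. By call 2 members were higher, against 1.49% of tested genes, and 3 were lower, against 4.6%. Groups did not overlap for 20 members that were lower in HB, or 55.6%, against 31.7% of tested genes, and for 2 that were higher, against 14.0%. With the same factor and filter, no gene passed an adjusted p under 0.05 in limma, where 1154 genes and 7 members had an unadjusted p under 0.05, and 6 higher and 28 lower passed with crossed numbers as a block, and 1 and 1 with no filter. The interaction model over both assays passed 1 gene and no member. Without HB1, 321 genes higher and 1280 lower passed that threshold, and without HB2, 294 and 748, with Ehhadh and Pex13 among them both times. In such a fit the lone HB library is assumed to vary like the HF libraries. The share of reads on protein-coding genes was lowest in the HB Ribo-seq libraries, as given above. Its part in the TE values was not tested directly, and scaling to those reads, with Pex13 left out of their sum, moved the enzyme median to −0.65 and that of all tested genes to −0.20.

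Ehhadh TE was 2.26 and 5.17 in HF and 0.737 and 0.756 in HB. The HB values were close together and both below the lower HF value (−2.16 ± 0.59, unadjusted p = 0.00996, adjusted p = 0.334). The call was lost without HF2, at −1.57, and with scaling to protein-coding reads, where the change fell just short of 2. Abcd3 TE was 3.85 and 6.95 in HF and 1.21 and 2.45 in HB (−1.57 ± 0.58), Acaa1b TE 0.541 and 0.477 in HF and 0.209 and 0.105 in HB (−1.77 ± 0.81), and Lonp2 TE 1.42 and 2.01 in HF and 0.582 and 0.691 in HB (−1.40 ± 0.55). Groups did not overlap for any of these 3, and none reached the change of 2. Cat TE was 1.75 and 2.22 in HF and 1.41 and 1.96 in HB, with overlapping groups (−0.25 ± 0.50). Scp2 TE was 1.16 and 1.37 in HF and 0.623 and 1.09 in HB (−0.61 ± 0.58).

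The other 4 calls rested on few RPF reads or on the Pex13 value. Pex11g TE was lower (−2.74 ± 0.94, adjusted p = 0.371) on 68 RPF reads in HF and 8 in HB, with RPFs of 14.6 and 18.9 RPKM in HF and 10.3 and 2.66 in HB. The call was lost without HF1 (−2.70), HF2 (−2.79) or HB2 (−1.76). Pex3, the membrane anchor of Pex19, had TE lower (−3.03 ± 0.99, adjusted p = 0.364) on 58 reads in HF and 5 in HB, with RPFs of 15.4 and 19.5 RPKM in HF, 8.92 in HB1 and 0 in HB2, where 3 reads would be 9.70 RPKM. The call was lost without HF1 (−3.31), HF2 (−2.75) or HB2 (−1.63). Abcd4 had TE higher (2.47 ± 0.89, adjusted p = 0.378) on 12 RPF reads in all, with 1.02 and 2.62 RPKM in HF and 3.08 and 5.58 in HB, while its mRNA fell. The call was lost without HF1, at 1.57. Pex13 TE was 19.9 and 44.4 in HF and 144 and 286 in HB (2.76 ± 0.83, adjusted p = 0.357), and the call was lost without HF1 (2.19) or HF2 (3.34). With a pseudocount of 0.1 none of these 4 calls stood, and with no filter those of Pex11g, Pex3 and Abcd4 were lost. The calls of Abcd4 and Pex13 were also lost under a common sum, that of Pex13 with the replicate block, and that of Pex3 in the interaction model and with crossed numbers.

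The low depth of the HB Ribo-seq libraries limits what can be said of the rarer members. Pex10, of the ubiquitin ligase, had 6 RPF reads in all and no library above 3 reads, so no RPF or TE change is given. Acot8 had 18 RPF reads and none in HB2. Slc25a17, Pex6, Pex2 and Acox3 each had at least 1 HB library at 3 reads or fewer. None of these genes was called in RPF. The RPF groups of Slc25a17 (23.2 and 22.1 RPKM in HF, 2.33 and 21.1 in HB) and of Acox3 (6.48 and 4.76 in HF, 2.93 and 1.77 in HB) did not overlap, with HB lower. The same held for 33.2% of all tested genes.

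Other peroxisomal genes were taken from a list of 54. Of 48 tested in mRNA, 4 were called higher and 1 lower, against 2.3% and 6.56% of all tested genes, with a median log2 fold change of 0.42 and 36 positive values. At an adjusted p under 0.05, 11 were higher and 1 lower, against 7.92% and 19.1%. Among those called higher were Pmvk (2.14) and Mvk (1.51), kinases of isoprenoid synthesis, and Dhrs4, a dehydrogenase and reductase (1.23), and the 1 called lower was Far2, a fatty acyl-CoA reductase (−1.40). Of 50 tested in RPF, none was called higher and 2 were called lower, Mvk and Zadh2 (−1.05), against 1.58% and 7.86% of all tested genes, with a median of −0.36 and 11 positive values. Mvk RPFs were 6.08 and 5.02 RPKM in HF and 0 in both HB libraries, where 3 reads on 1 kb would be 11.7 and 21.1 RPKM, so no fold is given for it. In TE the median of the 47 tested was −0.75, none was called higher and the same 2 genes were called lower, Zadh2 at −2.01, against 4.6% of all tested genes lower.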

How the data were processed

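Liver RNA-seq and Ribo-seq of the HF and HB groups were analysed, with 2 libraries per group and assay. The authors mapped reads to mm10 and deposited RPKM per gene and library, scaled by each library's own total. The submitters' processing notes name edgeR, which needs counts and was not used here. The region of a gene over which RPFs were counted is not given in the sources used here. Members and lists were chosen with earlier results of these data known.

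In each assay, genes averaging 1 RPKM or more across its 4 libraries entered limma 3.58.1 (R 4.3.3). Linear models with group as the only factor were fitted to log2(RPKM + 1) by lmFit, and eBayes moderated the variances along their trend with the mean level. Tests were two-sided, with Benjamini-Hochberg adjustment over all tested genes. A log2 fold change understates the change of low genes. Call thresholds followed the study's methods: beyond 1 with p under 0.001 for mRNA, beyond 1 with p under 0.05 for RPF and beyond 2 with p under 0.05 for TE. TE was log2((RPF + 1)/(mRNA + 1)) of libraries with the same group and number. Printed TE levels are plain RPKM ratios.

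Library totals, gene lengths and whole reads were estimated from RPKM steps. These reads summed to 96.4% to 98.0% of the totals in RNA-seq and 100.2% to 101.6% in Ribo-seq. A value on at most 3 reads was taken as at the floor, which covers counting error only. Named genes were all members called or with an adjusted p under 0.05 in any measure, and 10 fixed members (Cat, Ehhadh, Hsd17b4, Scp2, Abcd3, Crot, Pex11a, Pex5, Pex14 and Pex19). Results for some genes that the rules select are not reported here. The alternatives were other pseudocounts, filters, scalings, variance models, replicate blocks, left-out libraries, adjusted thresholds, an interaction model and crossed numbers for TE, and voom on recovered reads. The steps were tested on simulated data. Gene positions come from GENCODE M21 and promoter windows from RefSeq. Shared sequence was counted as 25-base words of a gene's transcripts found in another gene.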

Additional observations from a re-analysis of the deposited data

Results flagged for a closer look

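For 5 members the change with betaine differed between the assays by the test of that difference (limma on TE, unadjusted p under 0.05 and a log2 change beyond 2), and none passed the adjustment over all tested genes. The log2 change of RPF minus that of mRNA was −2.16 for Ehhadh, −2.74 for Pex11g and −3.03 for Pex3. It was 2.76 for Pex13 and 2.47 for Abcd4. Abcd4 rested on 12 RPF reads, Pex3 on 63 and Pex11g on 76, while Ehhadh rested on 756 and Pex13 on 4324. With 2 libraries per group no single library could be tested as an outlier.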

How the results depend on the processing

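The mRNA counts of 2 members higher and 0 lower became 0 higher with no filter, 1 higher with scaling to protein-coding reads or with voom, 6 higher under a common median, 6 higher and 1 lower with an adjusted p under 0.05 and the same fold, and 8 and 1 with no fold. Leaving out 1 library gave 1 to 4 higher and 0 to 1 lower, with 1 higher without HF1, 4 higher without HB2, and 1 lower without HF2 or HB2. The RPF counts of 1 higher and 1 lower became 0 lower under a common median, with no variance trend or with scaling to protein-coding reads, 15 lower under a common sum, 3 lower with voom, and 0 and 0 after adjustment. Of all 11190 tested genes 879 were called lower in RPF, and 2659 under a common sum. Leaving out 1 library gave 0 to 6 lower, with 0 without HF1, 6 without HB1 and 3 without HB2. The TE counts of 2 higher and 3 lower became 0 and 1 with a pseudocount of 0.1, 1 and 1 with no filter, 1 higher at a mean RPKM of at least 5, 0 and 7 under a common sum and 0 and 0 after adjustment. Of all 9455 tested genes 435 were called lower in TE, and 1332 under a common sum. Leaving out 1 library gave 0 to 2 higher and 0 to 6 lower, with 0 and 1 without HF1, 1 and 0 without HF2, and 6 lower without HB1 or HB2. Calls over all tested genes also shifted between the alternatives, including with 1 library left out, so these shifts are not particular to the members. The cause of these shifts was not tested, beyond the larger number of entries tested with no filter. The median of the peroxins became 0.47 in mRNA under a common median and −0.036 in RPF. Under a common sum it became −1.22 in RPF and −1.79 in TE, and that of the enzymes −1.16 in RPF and −1.62 in TE. Leaving out 1 library gave −1.01 (without HB2) to −0.42 (without HB1) for the enzymes in TE and −0.91 (without HB1) to −0.33 (without HF1) for the peroxins in RPF. The TE median of all tested genes was −0.23 without HB2 and −0.40 without HB1. No named gene's called change reversed its sign in any alternative. The crossed block, scaling to protein-coding reads and the median without Pex13 were chosen after seeing the data.

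Whether the replicate numbers pair the libraries is not settled. Deviations of HF and HB libraries with the same number had a correlation across genes of −0.104 in RNA-seq and −0.0138 in Ribo-seq. Those mRNA and RPF libraries that TE sets against each other by number had one of −0.00239 in HF and −0.0774 in HB. Such low correlations cannot exclude pairing, since counting error at the low Ribo-seq depth can hide it. With the number as a block, 6 members were higher and 1 lower in mRNA, 3 were lower in RPF and 1 was higher in TE. With the crossed block, 5 were higher and 1 lower in mRNA and 2 were lower in RPF. The depth of HB1 and HB2 in Ribo-seq, 257086 and 141890 reads, limits RPF and TE of the rarer members.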
